A study of Mus musculus with 4 samples.

Results

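Foxp3+ regulatory T cells of the mouse hindpaw were taken from 4 single-cell libraries. A UMI is a counted RNA molecule, and barcodes were kept from 200 genes upward if no more than 10% of their UMIs were mitochondrial. Among the kept barcodes, the Foxp3+ cells were chosen by their own counts, as those that held at least 1 UMI of Foxp3, at least 1 UMI of Cd3e, Cd3g or Trac, no UMI of the gamma-delta receptor gene Trdc and fewer than 5 UMIs of C1qa, C1qb and C1qc together. This gave 743 cells of 27800 kept barcodes, with 81 and 157 in the 12-week-WT and 12-week-DB libraries and 190 and 315 in the 21-week ones of WT and DB. Values are given in this order of libraries throughout. Because these measured counts chose the cells, the levels of the 8 genes are a description and were left out of every test. The T cells set against them, called Foxp3- cells, had no Foxp3 UMI, at least 1 UMI of Trac, none of Trdc and the same C1q limit, and numbered 271, 472, 689 and 766, or 2198 in all.

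CD45+ leukocytes had been sorted from collagenase-digested hindpaws of male mice and sequenced with droplet-based 10x chemistry, with 1 library for each condition. DB mice were Lepr db/db (strain C57BLKS/J-Dock7m +/+ Leprdb), so that they lacked the signalling form of the leptin receptor in all their cells, and WT mice were Lepr WT/WT littermates without a treatment in either group. The ages of 12 and 21 weeks come from the study's methods, since the labels give only young and aged. Each library pooled a few mice, so that the spread between mice is unknown and a difference between conditions cannot be told apart from one between libraries. The headers of the 2 older libraries also named another Cell Ranger version than those of the younger ones, while the labels give the version of the younger libraries for all 4 and the study's methods that of the older ones. If the versions did differ, age and software cannot be told apart.

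The libraries held 47851794, 57025899, 69626521 and 54989592 UMIs in 5998, 7463, 8208 and 9124 barcodes. Foxp3+ cells contributed 579352, 959718, 1466968 and 1688923 UMIs, with a median of 4526, 4257, 5376 and 4268 per cell against 6607, 5968, 6039 and 5736 in Foxp3- cells. The Foxp3+ cells were thus the shallower set in each library, and their median mitochondrial share was 3.83%, 3.65%, 4.38% and 3.17%. Pairs of libraries shared between 6 and 154 barcodes, most of them between the pair of older libraries, and 6 of the 743 cells carried a shared barcode. The counts had not been corrected for free RNA, and 7, 16, 14 and 18 of the Foxp3+ cells were among the highest doublet scores of their library. These were 8.64%, 10.2%, 7.37% and 5.71% of the Foxp3+ cells, against 3.69%, 8.26%, 8.85% and 6.53% of Foxp3- cells and 4.8%, 5.97%, 6.56% and 7.3% of all kept barcodes, so that the Foxp3+ share was above that of all barcodes in both 12-week libraries and in 21-week-WT.

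Regulatory T cells are CD4+ T cells that hold other lymphocytes and myeloid cells in check. Their identity rests on the forkhead transcription factor Foxp3, and they act through the inhibitory receptor Ctla4, through consumption of interleukin 2 by a high-affinity receptor, and through cytokines such as interleukin 10 and transforming growth factor beta. Those that live in skin, fat and muscle often carry the interleukin 33 receptor Il1rl1 and make amphiregulin, a growth factor for epithelium.

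Foxp3 itself (chrX:7573644-7595245, GRCm38, where the noncoding gene Flicr overlaps it) stood at 359, 433.5, 340.2 and 425 CPM (UMIs per 1000000 UMIs of the cells summed in each library) over the selected cells. A single Foxp3 UMI was all that 30.9%, 38.2%, 36.8% and 41.9% of them held. Macrophages, taken as barcodes with 5 or more C1q UMIs and no T cell UMI, should lack Foxp3, and 0.238%, 0.226%, 0.692% and 0.692% of them held a Foxp3 UMI at median depths of 9180, 10419, 10659 and 9213 UMIs. Asking for no T cell UMI also leaves out macrophages with stray T cell RNA, so these shares may understate stray Foxp3. At the edges of the rule, 10 cells had 3 or 4 C1q UMIs just inside the limit, while 4 otherwise fitting barcodes had 5 to 9 and 30 had 10 or more. A further 45 cells rested on exactly 1 T cell UMI, and 58 barcodes fell outside because they had none. The rule asked Trac of the Foxp3- side only, and 137 of the 743 Foxp3+ cells had no Trac UMI.

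Cells with a single Foxp3 UMI lay apart from the Foxp3- cells in 3 genes that the rule did not use. These genes were chosen with earlier results of the libraries known, so the levels are a description. Over the cells with 1 Foxp3 UMI Ctla4 was at 463, 841, 326 and 559 CPM, against 79, 98.1, 85.1 and 86.1 CPM in Foxp3- cells. Ikzf2, which encodes the transcription factor Helios, was at 1349, 1425, 823 and 1348 CPM against 223, 227, 117 and 203 CPM. Cd40lg, the ligand by which helper T cells activate B cells and dendritic cells, was at 0, 43.4, 37.9 and 22.7 CPM against 116, 101, 129.5 and 157 CPM. In all 4 libraries the cells with 1, with 2 and with 3 or more Foxp3 UMIs lay on the same side of the Foxp3- cells for these 3 genes. Icos lay closer, in cells with 1 Foxp3 UMI at 699, 657.5, 339.5 and 744 CPM against 311, 439.9, 317 and 465 CPM. Tnfrsf4 rose with the number of Foxp3 UMIs, in 21-week-WT from 193.5 CPM with 1 to 314 with 2 and 453 with 3 or more.

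**Figure D1:**
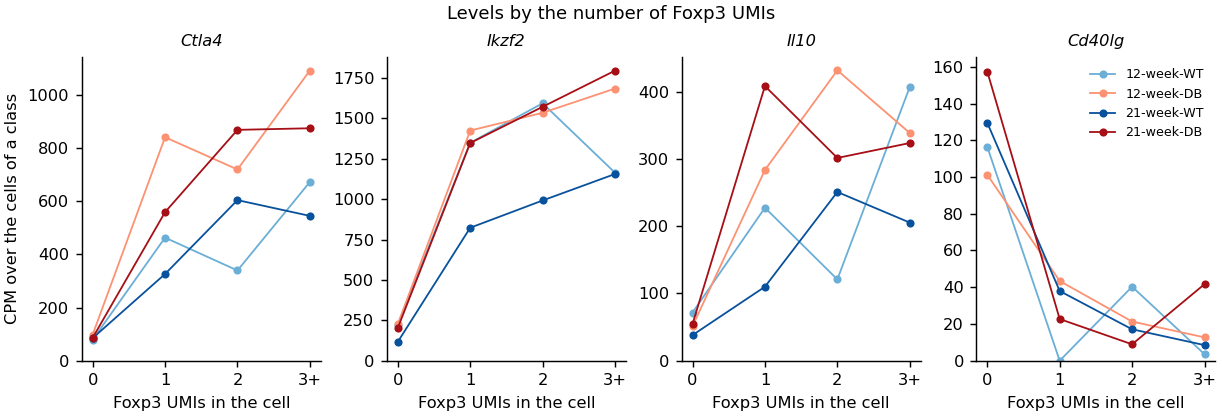
Levels of Ctla4, Ikzf2, Il10 and Cd40lg (CPM) over cells with 0, 1, 2 and 3 or more Foxp3 UMIs, 1 line per library; cells with 0 are the Foxp3- cells. Ikzf2 lay between 823 and 1425 CPM in cells with 1 Foxp3 UMI and between 117 and 227 CPM in cells with none.

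The promoters of a few of the genes described below carry letters that factors of T cell activation can bind, and they are shown for that reason. STAT factors act downstream of interleukin 2, and AP-1 factors downstream of the T cell receptor. RefSeq promoters (GRCm38.p6, from 250 bases before to 50 after a start site) were held for Foxp3, Ctla4, Tnfrsf4, Tnfrsf9 and Gbp7, with 7 start sites together, and the 3 with a STAT match were printed. Foxp3 and Tnfrsf9 each had another start site (chrX:7579426-7579725 and chr4:150919905-150920204) without a STAT match, which was not printed. In the 3 printed promoters capitals mark the STAT letters TTCNNNGAA and, in Tnfrsf9, also the AP-1 letters TGANTCA. All 3 lie on the plus strand and are read 5′ to 3′, at chrX:7580233-7580532 for Foxp3, chr4:150927749-150928048 for Tnfrsf9 and chr3:142530086-142530385 for Gbp7.
Foxp3: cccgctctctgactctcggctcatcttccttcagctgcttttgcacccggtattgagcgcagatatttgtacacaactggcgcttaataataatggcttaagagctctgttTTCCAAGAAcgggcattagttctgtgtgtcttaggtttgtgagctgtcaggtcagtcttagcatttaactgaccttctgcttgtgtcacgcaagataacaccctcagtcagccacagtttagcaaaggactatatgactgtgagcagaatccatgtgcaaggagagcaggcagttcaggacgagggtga
Tnfrsf9: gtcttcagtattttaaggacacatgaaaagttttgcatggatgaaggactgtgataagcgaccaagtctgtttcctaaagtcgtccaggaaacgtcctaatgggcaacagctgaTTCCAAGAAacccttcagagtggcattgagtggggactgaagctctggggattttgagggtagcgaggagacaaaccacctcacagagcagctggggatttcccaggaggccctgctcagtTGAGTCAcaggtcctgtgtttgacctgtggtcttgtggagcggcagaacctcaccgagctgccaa
Gbp7: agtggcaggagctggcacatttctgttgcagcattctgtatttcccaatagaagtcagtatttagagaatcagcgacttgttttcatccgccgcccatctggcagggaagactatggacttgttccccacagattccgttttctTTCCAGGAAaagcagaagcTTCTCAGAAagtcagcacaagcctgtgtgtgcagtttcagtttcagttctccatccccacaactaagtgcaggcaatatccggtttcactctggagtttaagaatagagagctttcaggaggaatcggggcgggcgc
Searched on both strands, the STAT letters were found in 3 of the 7 promoters, the AP-1 letters in 1 and the forkhead letters TGTTTAC in none. Of all 32851 RefSeq promoters, 8.3%, 7.81% and 3.65% held them. The shares were 8.85%, 6.37% and 3.01% among genes higher in Foxp3+ cells, and 7.73%, 7.22% and 3.61% among genes lower in them. Among all genes tested they were 6.61%, 4.94% and 2.64%. The matches describe letters only, with no test of binding.

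The markers given with the cell type set the Foxp3+ cells apart from other T cells. Ikzf2 (chr1:69531214-69687245) was at 1333, 1574, 997 and 1573 CPM in Foxp3+ cells and at 223, 227, 117 and 203 CPM in Foxp3- cells, with no overlap between the sets. It was 6.88-fold higher (log2 fold change 2.78 ± 0.0916, adjusted p = 3.11e-09, edgeR quasi-likelihood test on sums per library, 4 pairs; ± is the SE throughout). Ctla4 (chr1:60887000-60915832), which competes with Cd28 for the costimulatory ligands of antigen-presenting cells, was at 528, 941, 481 and 758 CPM in Foxp3+ cells and at 79, 98.1, 85.1 and 86.1 CPM in Foxp3- cells. No Foxp3- level of Ctla4 came near the lowest Foxp3+ level, and the gene was 7.16-fold higher (log2 fold change 2.84 ± 0.114, adjusted p = 1.27e-08). Tnfrsf4, the costimulatory receptor OX40, was at 271, 378, 326.5 and 484 CPM against 61.9, 59.5, 97.3 and 118.5 CPM and was 4.12-fold higher (log2 fold change 2.04 ± 0.128, adjusted p = 6.58e-07), again without overlap. Icos, a costimulatory receptor of activated T cells, was at 583, 736, 444.5 and 948.5 CPM against 311, 439.9, 317 and 465 CPM. It was 1.64-fold higher (log2 fold change 0.71 ± 0.0835, adjusted p = 0.00011) and higher in each library, but its Foxp3+ level in 21-week-WT lay below the Foxp3- level in 21-week-DB. These genes were handed over with the cell type after results of the same libraries were known, so their direction is not independent evidence.

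**Figure D2:**
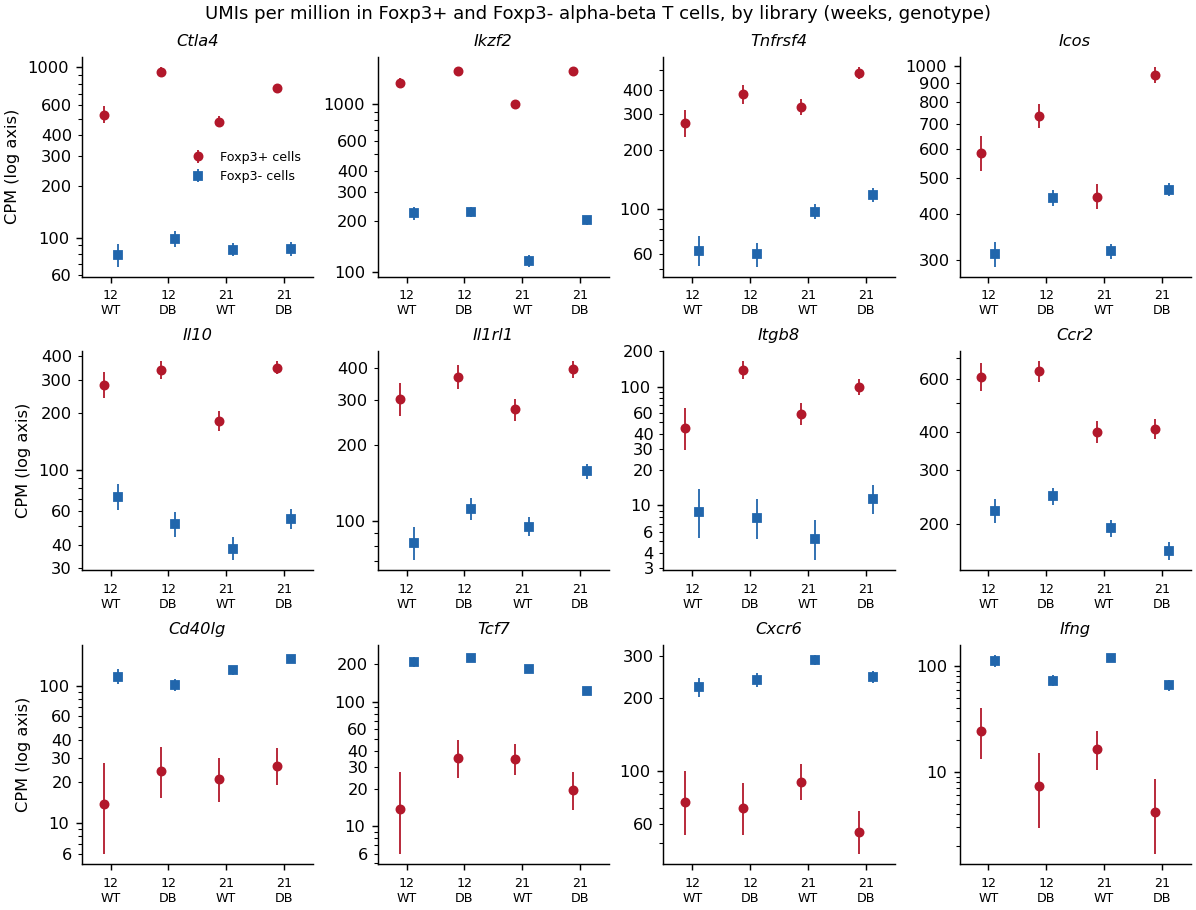
CPM (log axes) of 12 genes in Foxp3+ cells (circles) and Foxp3- cells (squares) of each library, with exact Poisson 95% intervals for counting error. For Ctla4, Ikzf2, Tnfrsf4, Il10 and Il1rl1 every Foxp3+ level lay above every Foxp3- level, and for Cd40lg, Tcf7 and Ifng every one lay below.

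Of 9742 genes tested, 537 (5.51%) were higher and 582 (5.97%) were lower in Foxp3+ cells at a Benjamini-Hochberg adjusted p under 0.05. The Foxp3+ levels of all 4 libraries lay above all 4 Foxp3- levels for 539 genes (5.53%) and below them for 296 (3.04%), and 318 and 238 of these were also called. Genes were ranked by fold change if they were called, averaged 50 CPM or more over the 8 sums and moved in a common direction in every library. The 10 largest increases were then Nrn1, Ikzf4, Tnfrsf9, Ctla4, Gm28112, Ikzf2, Klrg1, Neb, Il10 and Gbp7.

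Nrn1, the membrane-anchored protein neuritin, was at 128, 265, 99.5 and 204 CPM in Foxp3+ cells and at 19.4, 13, 18.4 and 23.5 CPM in Foxp3- cells (log2 fold change 3.07 ± 0.222, adjusted p = 1.89e-06). Ikzf4, which encodes Eos, a relative of Helios, was at 102, 143, 106 and 129 CPM against 14.8, 15.5, 13.9 and 14.6 CPM (log2 fold change 2.95 ± 0.117, adjusted p = 1.27e-08). Tnfrsf9, the costimulatory receptor 4-1BB, was at 128, 322, 197 and 242 CPM against 28.2, 23.4, 21.2 and 36.9 CPM (log2 fold change 2.94 ± 0.188, adjusted p = 7.2e-07). These 3 genes were 8.4-fold, 7.74-fold and 7.7-fold higher and did not overlap between the sets. Klrg1, an inhibitory receptor of differentiated lymphocytes, was at 147, 135.5, 93.4 and 85.3 CPM against 25.4, 11.55, 15.6 and 14.8 CPM (log2 fold change 2.69 ± 0.166, adjusted p = 6.12e-07), and Gbp7, an interferon-inducible GTPase gene, at 128, 69.8, 99.5 and 116 CPM against 20.8, 13.8, 29.2 and 24.1 CPM (log2 fold change 2.11 ± 0.137, adjusted p = 7.49e-07). Neb, which encodes the muscle protein nebulin, was at 34.5, 55.2, 52.5 and 193 CPM against 7.39, 8.17, 5.76 and 43.9 CPM (log2 fold change 2.38 ± 0.188, adjusted p = 4.44e-06). The levels of Neb overlapped, and both sets of 21-week-DB were several times above those of the other libraries. Gm28112 lies on the same strand inside an intron of Ikzf2 (chr1:69660187-69662061, GRCm38), so that its log2 fold change of 2.83 cannot be told apart from that of Ikzf2 transcripts. Tnfrsf9 partly overlaps Camta1, which lies on the opposite strand.

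The 10 largest decreases by the same ranking were Ifng, Ccl5, Tcf7, Cd40lg, Cma1, Mcpt2, Ramp3, F2r, Tnfsf8 and Bcl2. Ifng, the type 1 effector cytokine, was at 24.2, 7.29, 16.4 and 4.145 CPM in Foxp3+ cells and at 111, 73, 119 and 65.7 CPM in Foxp3- cells (log2 fold change -3.08 ± 0.204, adjusted p = 8.47e-07). Tcf7, a transcription factor of naive and memory-like T cells, was at 13.8, 35.4, 34.8 and 19.5 CPM against 209.8, 224, 183.5 and 122 CPM (log2 fold change -2.80 ± 0.155, adjusted p = 2.87e-07). Cd40lg was at 13.8, 24, 21.1 and 26.05 CPM against 116, 101, 129.5 and 157 CPM (log2 fold change -2.63 ± 0.137, adjusted p = 1.57e-07). For these 3 genes no Foxp3+ level reached the lowest Foxp3- level. Ccl5, a chemokine of cytotoxic and memory T cells, fell by 2.86 on the log2 scale (adjusted p = 7.2e-07), but among cells with a Cd4 UMI and no Cd8a or Cd8b1 UMI its log2 fold change was -0.075 (adjusted p = 0.964). Tnfsf8, the CD30 ligand, was at 75.95, 21.9, 57.9 and 58 CPM against 131, 183, 273 and 201 CPM (log2 fold change -2.04 ± 0.214, adjusted p = 4.44e-05), and its receptor gene Tnfrsf8 moved the other way (log2 fold change 2.47 ± 0.304, adjusted p = 0.000156). The survival gene Bcl2 was at 43.15, 38.55, 27.95 and 31.4 CPM against 103, 125, 92.9 and 182 CPM (log2 fold change -1.99 ± 0.177, adjusted p = 1.38e-05), and F2r, a thrombin receptor, at 15.5, 37.5, 30 and 15.4 CPM against 163, 118, 81.9 and 80.15 CPM. The study names F2r among the markers of its dermal gamma-delta T cells, and the part of such cells was not tested. Cma1 and Mcpt2 encode proteases of mast cell granules, and Ramp3 a partner of peptide hormone receptors, and the levels of all 3 overlapped between the sets.

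Other genes known from regulatory T cells moved with the markers. Of the 18 tested, 13 were higher, none was lower and 5 did not pass, with a median log2 fold change of 0.905 against about 0 over all genes tested. Among cells with a Cd4 UMI and no Cd8a or Cd8b1 UMI 9 of 18 were higher. Without 12-week-DB the count was 9 of 18, without 21-week-DB 10 of 18 and without 12-week-WT 14 of 19. At no more than 5% mitochondrial UMIs it was 10 of 19. Il2ra, the alpha chain of the interleukin 2 receptor, was at 499, 554, 446 and 368 CPM in Foxp3+ cells and at 149, 189, 149.9 and 237 CPM in Foxp3- cells (log2 fold change 1.28 ± 0.162, adjusted p = 0.00018). Tnfrsf18, the receptor GITR, was at 279.6, 258, 219 and 367 CPM against 85.5, 95.8, 107 and 199 CPM (log2 fold change 1.15 ± 0.13, adjusted p = 8.64e-05). Izumo1r, the folate receptor 4 gene, was at 58.7, 50, 35.45 and 40.3 CPM against 5.08, 5.35, 8.17 and 8.86 CPM (log2 fold change 2.52 ± 0.245, adjusted p = 2.54e-05). None of the 3 overlapped between the sets. Lrrc32, which holds latent transforming growth factor beta at the cell surface, was near the threshold (log2 fold change 1.60 ± 0.48, adjusted p = 0.049) and higher in 3 of 4 libraries. Of 15 costimulatory and checkpoint receptors 12 were higher and none lower (median 1.11), among them Cd5 (1.26 ± 0.127) and Cd200r1 (1.39 ± 0.11), which both dampen signalling. Among cells with a Cd4 UMI and no Cd8a or Cd8b1 UMI 9 of 14 were higher and 1 was lower. With stricter T cell receptor and Cd74 limits 11 of 14 were higher and 1 lower, and without a filter on low counts 13 of 17 and 1. The lists share members, and among the higher ones Icos, Tnfrsf4, Ctla4, Tnfrsf9, Tnfrsf18 and Tnfrsf1b were already counted above.

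Of 12 suppressive effectors tested, 8 were higher and none lower, with a median of 1.21. Ctla4, Lrrc32, Entpd1 and Lag3 among them also belong to the lists before. The count was smaller under other settings, with 3 of 12 without 12-week-DB, 4 of 12 without 21-week-DB, 4 of 12 at no more than 5% mitochondrial UMIs and 3 of 8 at 2000 UMIs per cell. Il10 (chr1:131019845-131024974) was at 283, 339.7, 182 and 349 CPM in Foxp3+ cells and at 71.6, 51.3, 38.1 and 54.6 CPM in Foxp3- cells (log2 fold change 2.35 ± 0.115, adjusted p = 8.4e-08). It was found in 19 of 81, 44 of 157, 52 of 190 and 123 of 315 Foxp3+ cells, or 23.5%, 28%, 27.4% and 39%, against 5.54%, 4.66%, 5.66% and 6.79% of Foxp3- cells and 7.79%, 3.84%, 11.4% and 6.3% of macrophages. Thinned to 2000 UMIs per cell, the Foxp3+ shares were 20.3%, 20.9%, 17.7% and 27% and the Foxp3- shares 3.82%, 3.49%, 2.66% and 4.64%. At equal depth, as before thinning, the Foxp3+ share was the larger one in every library. In 12-week-WT, 5 cells held 72.0% of the Il10 UMIs. Itgb8, an integrin subunit that releases active transforming growth factor beta, was at 44.9, 139.6, 59.3 and 99.5 CPM against 8.78, 7.89, 5.2 and 11.3 CPM (log2 fold change 3.29 ± 0.214, adjusted p = 7.49e-07), the largest fold change of the list. Tgfb1 itself did not pass, at 283, 224, 214 and 146 CPM against 249, 233, 232.5 and 133 CPM, in both sets lowest in 21-week-DB. Gzmb, a granule protease of cytotoxic cells, did not pass either, at 12.1, 62.5, 23.9 and 135 CPM against 15.25, 9.86, 42.5 and 41.2 CPM, and its Foxp3+ level was the higher one in both DB libraries and the lower one in both WT libraries. Lag3 (1.42 ± 0.312) and Ebi3 (1.37 ± 0.327), a checkpoint receptor and a cytokine subunit, were higher at levels under 25 CPM.

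Of 16 genes of tissue repair regulatory T cells, 13 were higher and 1 was lower, with a median of 1.0. At 2000 UMIs per cell 8 of 12 were higher. Il1rl1 (chr1:40429570-40465415) was at 302, 369, 275 and 395.5 CPM in Foxp3+ cells and at 81.8, 111, 95.1 and 157 CPM in Foxp3- cells (log2 fold change 1.52 ± 0.107, adjusted p = 1.53e-06), with no overlap. An Il1rl1 UMI was found in 67.9%, 65%, 54.2% and 55.9% of Foxp3+ cells, in 23.2%, 22.9%, 18.4% and 28.7% of Foxp3- cells and in 17.5%, 17.7%, 14.9% and 9.34% of macrophages. At 2000 UMIs per cell the Foxp3+ shares were 39.2%, 43.9%, 31.2% and 39.5% and the Foxp3- shares 9.92%, 13.1%, 9.62% and 18.6%, so that the gap held at equal depth. Areg, the amphiregulin gene, was at 181, 129, 181 and 299 CPM against 54.5, 64.5, 113 and 206 CPM (log2 fold change 0.82 ± 0.156, adjusted p = 0.00394). It was higher within each library, although the Foxp3- level of 21-week-DB lay above the Foxp3+ level of the other 3 libraries. The transcription factor genes Batf (1.18 ± 0.123), Irf4 (1.27 ± 0.153), Prdm1 (1.45 ± 0.141), Maf (0.695 ± 0.0727), Rora (0.33 ± 0.0907) and Pparg (1.51 ± 0.273) were all higher. Penk, the enkephalin precursor, was higher by 2.23 ± 0.258, with 88.2% of its UMIs in 12-week-DB held by 5 of 10 cells. Gata3, which is shared with type 2 helper cells, did not pass, at 421, 449, 296 and 463 CPM against 310.0, 418.5, 327 and 436 CPM. Ccr8, a skin-homing receptor, did not pass either, at 20.7, 24, 15.7 and 25.5 CPM against 5.08, 14.9, 12.1 and 21.4 CPM. The lower gene was Il18r1, the interleukin 18 receptor chain (log2 fold change -0.69 ± 0.112, adjusted p = 0.00123).

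Among 17 chemokine and homing receptors 4 were higher, 1 was lower and 12 did not pass (median 0.030). Ccr2, a receptor for monocyte chemoattractants, was at 608, 635, 401.5 and 409.7 CPM in Foxp3+ cells and at 221, 246, 193 and 163 CPM in Foxp3- cells (log2 fold change 1.22 ± 0.0845, adjusted p = 1.31e-06). Cxcr6, a receptor of tissue-resident T cells, was at 74.2, 69.8, 90 and 55.7 CPM against 222, 238, 289.6 and 246 CPM (log2 fold change -1.89 ± 0.117, adjusted p = 6.12e-07). Neither gene overlapped between the sets, and they moved in opposite directions. The study names Cxcr6 among the markers of its dermal gamma-delta T cells. The gamma-delta receptor gene Tcrg-C1 was at 0, 9.38, 2.05 and 3.55 CPM in Foxp3+ cells and at 38.35, 39.7, 9.47 and 26.6 CPM in Foxp3- cells. The part of gamma-delta cells without a Trdc UMI in the level of Cxcr6 was not tested. Ccr7, which guides naive and central memory cells to lymph nodes, did not pass, at 39.7, 82.3, 56.6 and 34.9 CPM against 108, 67.9, 73.7 and 45.1 CPM.

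Conventional T cell genes went the other way. Of 22 tested, 17 were lower, none was higher and 5 did not pass, and the median log2 fold change was -1.99. Among the lower ones, Il13 and Xcl1 are counted again below as ILC2 and NK cell markers. The study names Ccl5 and Xcl1 as markers of its NK cells. The part of other cell types on the Foxp3- side in these falls was not tested. Among cells with a Cd4 UMI and no Cd8a or Cd8b1 UMI 8 of 17 were lower, and at 2000 UMIs per cell 9 of 14. Il2, the cytokine that regulatory T cells consume, was found as 3, 2, 1 and 3 UMIs in Foxp3+ cells, where 3 UMIs correspond to 5.18, 3.13, 2.05 and 1.78 CPM, and as 44, 82, 99 and 102 UMIs in Foxp3- cells. Il22, a cytokine of type 17 cells, was found as 0, 0, 2 and 0 UMIs against 61, 27, 239 and 55 UMIs. Both were near the limit of counting in Foxp3+ cells. Csf2, which activates myeloid cells, was at 1.73, 3.13, 9.54 and 4.145 CPM against 23.6, 65.9, 27.9 and 55.8 CPM (log2 fold change -3.14 ± 0.34, adjusted p = 5.97e-05). Tbx21, the lineage regulator of type 1 cells, was lower too (log2 fold change -1.90 ± 0.455, adjusted p = 0.0152), in 3 of 4 libraries. Il7r, the interleukin 7 receptor chain that is often low on regulatory T cells, did not pass, at 274, 382, 324.5 and 763 CPM against 386, 387, 283 and 657 CPM.

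The Foxp3- side was a mixture of CD4, CD8 and other T cells. A cell without a Foxp3 UMI may still express the gene, so Foxp3- cells may include regulatory T cells. Of the Foxp3+ cells thinned to equal depth, 68.4%, 59.5%, 57% and 64.9% still held a Foxp3 UMI. The part of such missed cells in the fold changes and in the shares of Foxp3+ cells was not tested. Cd8a was found in 4 of the 743 Foxp3+ cells, 3 of them in 12-week-DB, and in 9.23%, 11.7%, 7.26% and 6.92% of Foxp3- cells. Cd4 was found in 46.9%, 45.2%, 53.7% and 43.2% of Foxp3+ cells and in 25.8%, 30.9%, 42.1% and 23% of Foxp3- cells. Restricted to cells with a Cd4 UMI and none of Cd8a or Cd8b1, 233 genes were higher and 213 lower of 7734 tested. Of the 22 genes named above as markers or largest changes, 21 kept their call there, and the exception was Ccl5.

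Markers of other cell types were counted on both sides. All 5 mast cell markers were lower in Foxp3+ cells, their summed level being 41.4, 20.8, 23.2 and 295 CPM against 771, 702, 104 and 546 CPM, with Mcpt2 the most abundant. The 4 ILC2 markers tested were lower (summed 797, 789.8, 913 and 1587 CPM against 1307, 1932, 1405 and 3168 CPM, with Ctla2a the most abundant), as were both NK cell markers tested (summed 70.8, 126, 68.85 and 46.8 CPM against 222, 192, 122 and 161 CPM) and 2 of 3 gamma-delta T cell markers (15.5, 28.1, 11.6 and 21.3 CPM against 82.7, 90.5, 32.3 and 76.4 CPM). Klra7 and, by the rule, Trdc had no UMI in Foxp3+ cells, and 60, 67, 100 and 162 Foxp3- cells had no Cd3d, Cd3e or Cd3g UMI. When both sides had to hold Cd3 and Trbc UMIs with under 20 Cd74 UMIs, the call of Mcpt2 was lost (adjusted p = 0.284) and the other 21 named genes kept theirs.

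MHC class II genes, which belong to dendritic cells and macrophages, were found on both sides. With Mgl2 their summed level was 14770, 9896, 13460 and 1834 CPM in Foxp3+ cells and 9852, 7419, 10380 and 402 CPM in Foxp3- cells, Cd74 being the most abundant. Of the 5 genes 4 were higher (median 0.71). Cells with 20 or more Cd74 UMIs were found on both sides. They were 11 of 81, 17 of 157, 26 of 190 and 6 of 315 Foxp3+ cells. On the Foxp3- side they were 37 of 271, 40 of 472, 77 of 689 and 8 of 766 cells. The direction did not hold in the fit at equal depth, where the log2 fold change of Cd74 was -0.22 (adjusted p = 0.66). That fit also held fewer Foxp3+ cells, with 47, 84, 98 and 171. By share of thinned cells, Cd74 was higher on the Foxp3+ side in every library. A Cd74 UMI was found in 64.6%, 59.5%, 64.0% and 30.7% of thinned Foxp3+ cells. In thinned Foxp3- cells the shares were 53.4%, 39.3%, 47.5% and 12.8%. Whether depth or the choice of cells turned the sign was not tested. Of the B cell markers 2 of 4 were higher, Ighm and Igkc, at a summed level of 501, 188, 242 and 107 CPM against 390.0, 98.9, 122 and 40.4 CPM. Neutrophil markers, led by S100a9, summed to 119, 47.9, 19.1 and 728 CPM against 2914, 80.9, 194 and 132.5 CPM, and none of the 5 passed. Of the macrophage markers 1 of 2 tested was lower, Pf4 (summed 185, 204, 159.5 and 287 CPM against 255, 240.4, 167 and 203 CPM), and none of 3 dendritic epidermal T cell markers or of the 1 keratinocyte and fibroblast marker tested passed. The part of such cells and of free transcripts in these results was not tested.

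Lists from other processes were counted in the same way, beside 5.51% of all genes tested that were higher and 5.97% that were lower. Of 15 NF-kB and TNF family genes 5 were higher and none lower (median 0.16), and Tnfrsf4, Tnfrsf9 and Tnfrsf18 among them were counted above. Of 14 dissociation and heat-shock genes 4 were lower and none higher (median -0.205), and of 11 interferon-stimulated genes 3 were higher and 1 lower. Of 5 T cell receptor and coreceptor genes 2 were higher, the receptor chain Cd247 and the coreceptor Cd4. The direction of Cd4 turned among cells chosen by a Cd4 UMI. Of 11 glucocorticoid-responsive genes and metallothioneins Mt1 and Mt2 were higher and Klf9 was lower, and the calls of Mt1 and Mt2 were lost without 21-week-DB. Hif1a, the oxygen-responsive transcription factor, was at 385, 387, 389 and 397 CPM in Foxp3+ cells and at 152, 206, 245 and 242 CPM in Foxp3- cells (log2 fold change 0.81 ± 0.109, adjusted p = 0.000307), at nearly equal levels in the Foxp3+ cells of all libraries. Of the other 14 glucose, insulin and lipid genes tested, the glycolytic enzyme gene Pkm was higher (log2 fold change 0.35 ± 0.0848, adjusted p = 0.0171) and Hk2, Cd36 and Igf1r were lower. The log2 fold change of Igf1r turned positive among cells with a Cd4 UMI and no Cd8a or Cd8b1 UMI. None of the 10 cell cycle genes passed. Cells with 5 or more UMIs of these 10 genes made up 3.7%, 5.73%, 5.79% and 0.635% of Foxp3+ cells and 9.96%, 9.53%, 9.43% and 1.04% of Foxp3- cells, the lowest share being that of 21-week-DB on both sides.

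Whether Foxp3+ cells took another share of T cells with diabetes or age was not tested. Each condition had 1 library, and the shares are given with their counting error. Foxp3+ cells made up 23%, 25%, 21.6% and 29.1% of Foxp3+ and Foxp3- cells together, with exact 95% intervals from 18.7, 21.6, 18.9 and 26.4% to 27.8, 28.5, 24.5 and 31.95%. The ratio of DB to WT was 1.085 (95% interval 0.858 to 1.37) at 12 weeks and 1.35 (1.15 to 1.58) at 21 weeks. The ratio of 21 to 12 weeks was 0.939 (0.747 to 1.18) in WT and 1.17 (0.9905 to 1.38) in DB. Of these intervals, that of the 21-week ratio of genotypes lay above 1, and it did so also under 11 other ways of choosing the cells, with ratios between 1.28 and 1.66. The interval of 21 to 12 weeks in DB lay above 1 under 5 of the 11, with ratios from 1.19 to 1.34. Restricted to cells with a Cd4 UMI and no Cd8a or Cd8b1 UMI, the shares were 35.2%, 32.2%, 26% and 43.2%. Of all kept barcodes the Foxp3+ cells were 1.54%, 2.4%, 2.61% and 3.62%, a share that also depends on how many other leukocytes were captured. The intervals cover counting error only, not the spread between mice or regulatory T cells whose Foxp3 was not counted.

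**Figure D3:**
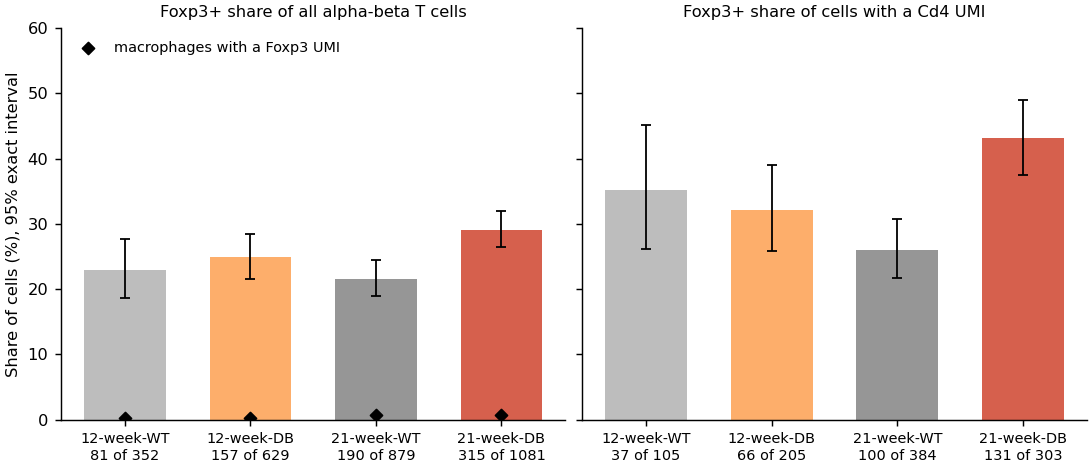
Foxp3+ cells as a share (%) of Foxp3+ and Foxp3- cells together (left) and of those with a Cd4 UMI and no Cd8a or Cd8b1 UMI (right), with exact 95% intervals for counting error. Diamonds are the share with a Foxp3 UMI, at most 0.692%, among macrophages chosen without a T cell UMI. The 21-week-DB share was the largest in both panels, at 29.1% and 43.2%.

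Within Foxp3+ cells, levels were compared between conditions for genes that reached 100 CPM in one of both libraries and 50 UMIs over the pair. A gene could thus pass only through the library where it was high, and ratios and intervals of such genes are a description. Among the 5 largest ratios each way named below, all genes except Mt1 and H2-Ab1 passed in this way. At 12 weeks 12 of 1760 genes (0.682%) were at least 2-fold higher and 22 (1.25%) at least 2-fold lower in DB than in WT, with no test. The 5 largest ratios up were those of Spp1, Lyz1, Fxyd2, Itgb8 and Gcnt1. Itgb8 was at 44.9 CPM in 13 of 81 WT cells and 139.6 CPM in 47 of 157 DB cells (log2 ratio 1.64, 1.02 to 2.30, 95% counting interval), and its log2 ratio in Foxp3- cells was -0.15. Fxyd2, a regulator of the sodium pump, was at 20.7 and 111.5 CPM, and Gcnt1, a glycan-branching enzyme, at 39.7 and 103 CPM. Fxyd2 was also higher in the Foxp3- cells of DB (59.1 and 198 CPM). Spp1, the osteopontin gene, was found in 4 cells of 12-week-DB, 1 of which held 97.7% of its 177 UMIs, and its log2 ratio turned to -3.23 with 2 Foxp3 UMIs asked for and to -3.16 among CD4 cells. Lyz1 is hard to separate from its near copy Lyz2, and 1 cell held 43.0% of its UMIs.

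The 5 largest ratios down at 12 weeks were those of Plac8, Igkc, Egr1, Ear2 and Mgl2. In 12-week-WT 1 cell held 84.8% of the Plac8 UMIs, 74.7% of the Igkc UMIs and 56.0% of the Ear2 UMIs, and Mgl2 was found in 8 cells. With no C1q UMI allowed the log2 ratios of Plac8, Ear2 and Mgl2 turned to 0.27, 1.24 and 1.26, and without the highest doublet scores that of Igkc turned to 0.19. Ear2 belongs to a family of near-identical genes, and its counts are uncertain for that reason. Egr1, an immediate early gene, was spread more widely, at 186 CPM in 37 WT cells and 65.6 CPM in 36 DB cells (log2 ratio -1.51, -1.98 to -1.04), and its ratio in Foxp3- cells was -0.95. Egr1 is one of 14 dissociation and heat-shock genes, which respond to tissue handling, and all 14 had ratios below 0 in this comparison, with a median of -0.36 against 0.055 over all genes compared and of -0.14 in Foxp3- cells. Jun among them was at 521 and 250.1 CPM. The part of handling in these ratios was not tested.

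At 21 weeks 53 of 1680 genes (3.15%) were at least 2-fold higher and 54 (3.21%) at least 2-fold lower in DB. Mt1, a metallothionein that binds zinc and responds to metals, glucocorticoids and stress, was at 119, 180.3, 132 and 1132 CPM in the 4 libraries, so that 21-week-DB stood apart from the other 3. It was found in 65 of 190 and 173 of 315 cells at 21 weeks, with a log2 ratio of 3.10 (2.88 to 3.32) in Foxp3+ cells and 1.85 in Foxp3- cells. Its partner Mt2 was at 25.9, 89.6, 34.1 and 236 CPM. In macrophages thinned to 2000 UMIs, 43.9%, 41.1%, 39% and 76.6% held an Mt1 UMI, again the most in 21-week-DB.

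The other 4 of the 5 largest ratios up at 21 weeks were those of S100a9, S100a8, Dcn and Mcpt2, and 1 cell held most of the UMIs of each. S100a9 and S100a8, the calprotectin genes of neutrophils, had 411 of 695 and 235 of 456 UMIs in 1 cell of 21-week-DB. With the highest doublet scores left out, their log2 ratios were -0.19 and -0.13. Dcn, the fibroblast matrix gene decorin, had 135 of 196 UMIs in 1 cell, and Mcpt2 had 175 of 259. The 5 largest ratios down were those of Plac8, Mgl2, Plbd1, H2-Ab1 and Ighm. H2-Ab1 was at 2322 CPM in 136 cells of WT and 242 CPM in 78 cells of DB (log2 ratio -3.26, -3.41 to -3.11), and Cd74 at 6055 and 932.5 CPM. In Foxp3- cells Cd74 was at 4746 and 188 CPM, and of macrophages 94.6% and 46.1% held a Cd74 UMI at 21 weeks. Cd74 was thus lower in DB on both sides, and in macrophages by the share of cells, where the other MHC class II genes were not counted. Ighm was at 138 CPM in 78 cells and 17.2 CPM in 23 cells, and Plac8 and Mgl2 rested on 8 and 18 cells of WT.

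The 4 markers other than Foxp3 had log2 ratios above 0 in DB over WT at both ages, where the medians over all genes compared were 0.055 at 12 weeks and 0.075 at 21 weeks. Ikzf2 stood at 0.24 (0.11 to 0.37) and 0.66 (0.565 to 0.75), and in Foxp3- cells at 0.022 and 0.80. Tnfrsf4 stood at 0.48 (0.21 to 0.76) and 0.57 (0.40 to 0.73), and in Foxp3- cells at -0.058 and 0.28. Icos reached 2-fold at 21 weeks, at 444.5 and 948.5 CPM (log2 ratio 1.09, 0.96 to 1.23), with 0.55 in Foxp3- cells. At 12 weeks Icos was at 583 and 736 CPM in Foxp3+ cells and at 311 and 439.9 CPM in Foxp3- cells. Ctla4 had log2 ratios of 0.83 (0.64 to 1.025) in the younger and 0.66 (0.52 to 0.79) in the older mice, and in Foxp3- cells 0.31 and 0.018.

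Suppressive effectors had ratios on both sides of 0. Gzmb was at 23.9 CPM in 23 of 190 cells and 135 CPM in 82 of 315 cells at 21 weeks (log2 ratio 2.50, 1.98 to 3.06), and its ratio in Foxp3- cells was -0.046. At 12 weeks it did not reach the 100 CPM asked for, at 12.1 and 62.5 CPM with 7 and 60 UMIs. For Il10 the log2 ratio was 0.94 (0.73 to 1.15) in the older mice and 0.26 (-0.012 to 0.54) in the younger ones, where the interval held 0. Tgfb1 stood at -0.56 (-0.80 to -0.31) at 21 weeks and Lgals1, which encodes galectin-1, at -0.51 (-0.60 to -0.41), and in Foxp3- cells at -0.80 and -0.81. Batf, which like Gzmb reached 100 CPM only in DB, was at 84.5 and 197 CPM at 21 weeks (1.22, 0.92 to 1.53). Areg stood at 0.72 in the older mice and -0.49 in the younger ones. In Foxp3- cells of WT and DB, Areg was at 54.5 and 64.5 CPM in the younger and 113 and 206 CPM in the older mice. Foxp3- levels of Il10 were 71.6 and 51.3 CPM in the younger and 38.1 and 54.6 CPM in the older mice. Those of Batf were 49.8 and 69.4 CPM in the older mice. The other regulatory T cell genes lay on both sides of 0, and of those below it Il2ra had -0.28 at 21 weeks against 0.66 in Foxp3- cells, Itgae had -0.58 against -0.65 and Cd83 had -0.83 against -2.01. Il7r had 1.23 against 1.22.

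**Figure D4:**
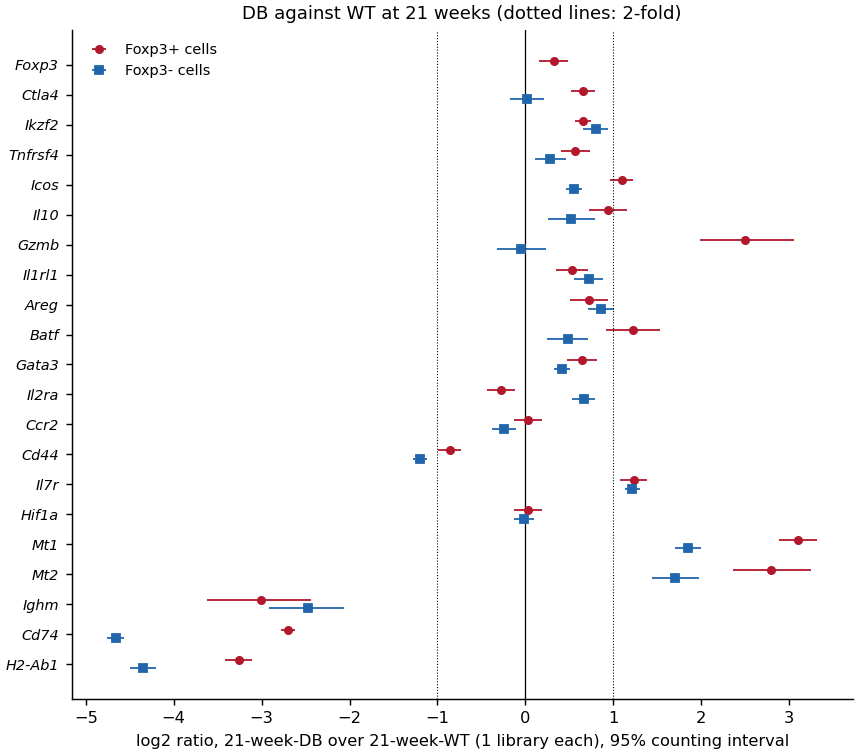
Log2 ratios of 21-week-DB over 21-week-WT in Foxp3+ cells (circles) and Foxp3- cells (squares), with 95% intervals for counting error and dotted lines at 2-fold; each condition is 1 library and no test was made. Gzmb lay at 2.50 in Foxp3+ cells and -0.046 in Foxp3- cells, while Mt1 and Cd74 lay on the same side of 0 in both.

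The ages were set side by side in the same way, using the same 4 libraries again. In WT, 12 of 1691 genes (0.71%) were at least 2-fold higher at 21 weeks and 40 (2.37%) at least 2-fold lower. The 5 largest ratios up were those of Il1b, Thbs1, Ier3, Gcnt1 and Gm43305, and Gcnt1, at 39.7 CPM in 14 cells and 102 CPM in 77 cells, was the most widely spread. Il1b, the inflammatory cytokine of myeloid cells, was found in 7 and 29 cells, and Thbs1 had 155 of 205 UMIs in 1 cell and a log2 ratio of -2.72 among CD4 cells. The 5 largest ratios down were those of Ccl4, Fn1, Nav2, Rassf4 and Ear2. Nav2, a neuron navigator gene, was at 135 CPM in 38 of 81 cells and 40.2 CPM in 40 of 190 cells (log2 ratio -1.74, -2.26 to -1.24), and its ratio in Foxp3- cells was 0.024. Ccl4, a chemokine, had 180 of 211 UMIs of 12-week-WT in 1 cell, and its log2 ratio turned to 0.775 with no C1q UMI allowed.

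In DB, 54 of 1803 genes (3.0%) were at least 2-fold higher at 21 weeks and 86 (4.77%) at least 2-fold lower. The 5 largest ratios up were those of S100a8, Cxcl1, Ccl2, Mcpt2 and S100a9. Cxcl1, a neutrophil chemokine, was found in 30 of 315 cells and Ccl2, a monocyte chemokine, in 16, and 1 cell held 40.3% and 62.1% of their UMIs. For S100a8, S100a9 and Mcpt2 1 cell of 21-week-DB held 51.5%, 59.1% and 67.6%, and without the highest doublet scores the log2 ratios of S100a8 and S100a9 turned to -0.41 and -1.20. The largest ratios down were those of Gm15564, Spp1, Naaa, Ighm and Plbd1. The ratio of Spp1, with 97.7% of its 12-week-DB UMIs in 1 cell, turned to between 0.79 and 1.89 under 4 other ways of choosing the cells. Gm15564, a noncoding gene (chr16:35966752-35983230, GRCm38) that overlaps Parp9 and Kpna1 on the opposite strand, was at 159, 159, 93.4 and 2.37 CPM, and at 221, 185, 109 and 5.56 CPM in Foxp3- cells. It was nearly missing from 21-week-DB on both sides. Naaa, an enzyme that breaks down lipid amides, was at 153 and 13 CPM. Cd44, an adhesion molecule of activated T cells, was at 906, 905.5, 842 and 464 CPM in Foxp3+ cells and 920.0, 795, 869.6 and 379.9 CPM in Foxp3- cells, lowest in 21-week-DB on both sides.

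The Foxp3+ cells were split by Il1rl1. An Il1rl1 UMI was held by 55 of 81, 102 of 157, 103 of 190 and 176 of 315 cells, which had median depths of 4925, 4570, 5903 and 4556 UMIs, and the cells without had 3604.5, 3696, 4860 and 4058. The split uses a measured count and follows depth, and a cell without an Il1rl1 UMI may still express the gene, so the levels on either side of it are a description. Klrg1 was at 172, 159, 128 and 112 CPM in cells with Il1rl1 and at 49.9, 70.8, 37.6 and 44.8 CPM in cells without. Ccr2 was at 625, 693, 448 and 476 CPM and 540.4, 472, 326 and 309 CPM, and like Klrg1 it was higher with Il1rl1 in all 4 libraries. Tcf7 was lower with Il1rl1 in all 4, at 8.71, 21.3, 20.9 and 11.8 CPM and 33.3, 74.7, 57.25 and 31.4 CPM. Ctla4 had no common direction, at 490.1, 824, 479 and 802.5 CPM and 673, 1266, 483 and 689.9 CPM.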

How the data were processed

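Droplet-based single-cell RNA sequencing of sorted CD45+ hindpaw cells gave 1 library for each of 4 conditions. The authors aligned reads to mm10 (GRCm38) with Cell Ranger (5.0.0 in the labels and in the headers of the 12-week libraries, 6.0.0 in those of the 21-week libraries, and the latter for all libraries in the study's methods) and deposited raw UMI counts per gene and barcode, before the correction for free RNA and the doublet removal that they describe for later steps. Genes, barcodes and UMIs were read as deposited. Doublets were scored with Scrublet in scanpy 1.11.5 and only left out in an alternative.

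UMIs were summed per library over Foxp3+ and over Foxp3- cells, and the 8 sums were tested with edgeR 4.0.16 (R 4.3.3; quasi-likelihood test, TMM, filterByExpr, library as a block, Benjamini-Hochberg adjustment over 9742 genes), after a check on simulated data. The 4 pairs come from 4 different conditions, and the p-values measure the spread between them. Levels are CPM with exact Poisson intervals, shares have exact Clopper-Pearson 95% intervals, and ratios between conditions have exact conditional binomial intervals and no test. The interval of a ratio of shares is log-normal. All intervals cover counting error only. The C1q limit was applied to the Foxp3- cells too. Alternatives were other cell limits, thinning to 2000 UMIs, other scalings, DESeq2 1.42.0, no filter, no block and leaving out each library.

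Named genes were the 5 markers, members of gene lists, the 10 largest increases and decreases among called genes with a mean of 50 CPM and a common direction, and the 5 largest ratios each way per comparison of conditions. Receptor segments, ribosomal protein and mitochondrial genes were not named. The members and the lists were chosen with earlier results of these data known. Some members of the gene lists are counted but not reported by name here.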

Additional observations from a re-analysis of the deposited data

How the results depend on the processing

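The counts of 537 higher and 582 lower genes became 325 higher with no C1q UMI allowed, 233 and 213 among CD4 cells, 178 and 235 at 2000 UMIs per cell, 334 and 367 with the DESeq2 Wald test, 1018 lower without a filter on low counts and 122 and 133 without the library block. Leaving out a library gave 300 to 465 higher and 328 to 504 lower genes, with the lowest counts without 12-week-DB. Scaling to total UMIs gave 712 and 431, so that 62.3% in place of 48.0% of the calls were higher, and shifted the median of all genes by 0.0814. The 22 named genes kept their direction under each setting. Calls were lost by Mcpt2 with no C1q UMI and with stricter T cell receptor and Cd74 limits, by Ccl5 among CD4 cells, and by Icos, Neb, Cma1, Mcpt2 and Ramp3 without the block. The calls of Mt1 and Mt2 were lost without 21-week-DB. Without the block 5 of 18 other regulatory T cell genes, 3 of 12 suppressive effectors, 6 of 16 tissue repair genes and 6 of 15 costimulatory and checkpoint receptors were higher. No paired analysis was possible because the labels give no replicate numbers, beyond the library block already in the fit.

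The shares of Foxp3+ cells became 17.13%, 17.05%, 14.83% and 19.28% with 2 Foxp3 UMIs, and 35.24%, 32.2%, 26.04% and 43.23% among CD4 cells. At 2000 UMIs per cell they were 21.05% in 12-week-DB and 17.41% and 25.18% in the older WT and DB mice, and with Trac on both sides 21.59%, 18.36% and 24.38%. In 21-week-DB the share was 33.67% with the stricter T cell receptor and Cd74 limits. Among CD4 cells the ratio of DB to WT at 21 weeks was 1.66, and that of 21 to 12 weeks in WT 0.739.

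Of the counts of 2-fold genes at 12 weeks, the higher ones became 36 with no C1q UMI, 41 among CD4 cells and 23 with the stricter limits, and the lower ones 42 without the highest doublet scores, 46 among CD4 cells and 9 at 2000 UMIs. The higher ones at 21 weeks became 86 at 2000 UMIs. In WT with age the higher ones became 24 among CD4 cells and 24 with the stricter limits, and the lower ones 61 with 2 Foxp3 UMIs, 80 among CD4 cells and 11 at 2000 UMIs.

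The following changed sign. Among CD4 cells Cd4 was at -0.37 and Igf1r at 0.47 (log2 fold change). At 2000 UMIs per cell Cd74 was at -0.22, H2-Aa at -0.85, H2-Ab1 at -0.39 and H2-Eb1 at -0.59, and with the stricter limits H2-Eb1 was at -0.045. The log2 ratios at 12 weeks were 0.19, 0.79, 0.43 and 1.12 for Igkc without the highest doublet scores, with 2 Foxp3 UMIs, among CD4 cells and with the stricter limits, -3.23, -3.16 and -0.028 for Spp1 with 2 Foxp3 UMIs, among CD4 cells and as a mean of log values, and 0.27, 1.24 and 1.26 for Plac8, Ear2 and Mgl2 with no C1q UMI. At 21 weeks S100a9 was at -0.19 and S100a8 at -0.13 without the highest doublet scores. In WT with age Ccl4 was at 0.775 with no C1q UMI and 1.02 with the stricter limits, and Thbs1 at -2.72 among CD4 cells. In DB with age S100a8 was at -0.41 and S100a9 at -1.20 without the highest doublet scores, and S100a9 at -1.055 among CD4 cells, -1.70 with Trac on both sides and -0.085 as a mean of log values. Spp1 there was at 0.79 without the highest doublet scores, 1.89 with 2 Foxp3 UMIs, 1.60 among CD4 cells and 1.35 with the stricter limits. The cause of these changes was not tested. The stricter limits, Trac on both sides and the removal of shared barcodes were chosen after seeing the data.

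With 1 library per condition no difference between conditions has a replicate check, and 81 cells in 12-week-WT limit the counting precision there the most.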
